A study of Mus musculus with 6 samples.

Results

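The intercalated disc is the contact zone that joins cardiomyocytes end to end. Gap junctions in it, built of connexins, let current and small molecules pass from cell to cell. Adherens junctions join the cadherins of neighbouring cells to the actin of the sarcomeres, and desmosomes join the desmosomal cadherins to the desmin filaments through plakoglobin, plakophilin and desmoplakin. In the ventricle these contacts carry the beat as a wave and hold the cells together under load, and inherited defects of the desmosome are known for arrhythmogenic cardiomyopathy.

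The expression of 10 junction genes of the disc was read from 1-colour Agilent arrays of cardiac muscle RNA from male C57BL/6 mice. They are the connexin genes Gja1, Gja5 and Gjc1, the adherens junction genes Cdh2 and Ctnna3, and the desmosome genes Dsp, Pkp2, Jup, Dsg2 and Dsc2, and every probe carrying one of these names in the array's annotation was taken. This gave 15 of the 55681 non-control probes and 10 of the 28909 gene names. Sham (n = 3 mice) and tail-suspension (n = 3 mice) hearts were compared. In tail-suspension, the hindlimbs are lifted off the floor as a ground model of weightlessness. It lasted 28 days, whereas the sham mice were kept unsuspended under the same conditions. The age is not settled: the labels put the start at 10 weeks but give an age of 11 weeks in both groups, and the study's methods give a younger start. No drug treatment is given for these mice, and the tissue was whole cardiac muscle, not sorted cells.

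The 6 arrays shared 1 slide and 1 scan. Between 50.94% and 53.44% of probes were well above background on an array, and log2 values correlated at 0.9939 to 0.9957 within the sham group, 0.9915 to 0.9952 within the tail-suspension group and 0.9781 to 0.984 between the groups. Of the labelled tissue's defining genes, all 10 cardiomyocyte markers looked up were well above background. A level is given here as the log2 intensity of a probe minus that of the 75th percentile of its array. That percentile lay at intensities of 302 to 322 in sham and 341 to 376 in tail-suspension, so an equal intensity is a lower level in tail-suspension. Intensities of different probes are not comparable, so only changes and not levels are compared between genes, and the summed levels of marker lists lean on their brightest probes. Tested were probes that stood well above background throughout 1 group or both, which 13 of the 15 probes did. The other 2 probes, 1 of Gja5 and 1 of Dsg2, were not well above background on any array. Calls rest on limma with Benjamini-Hochberg adjustment over all 28032 tested probes and a threshold of 0.05. The brightest tested probe stands for its gene.

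Of the 10 junction genes, 0 rose and 2 fell in tail-suspended mouse hearts, both of them connexin genes: Gja1 to 0.588 times and Gjc1 to 0.811 times the sham level. Among all 17140 genes tested, 10.6% were called higher and 10.5% lower, 21.2% in all, so the share of junction genes called is close to the background. The third connexin, Gja5, had a log2 fold change of 0.23, and the 7 genes of adherens junctions and desmosomes lay between -0.32 and 0.39 with 0 past the threshold. At an unadjusted p under 0.05, 3 of the 10 genes passed, Dsg2 beside the 2 connexins, against 39.3% of all genes tested. The median log2 fold change was -0.12 over the 10 genes and -0.01 over all genes tested. The sham and tail-suspension arrays did not overlap for 3 of the 10 genes, Gja1, Gjc1 and Dsp, all of them lower in tail-suspension, against 46.5% of all genes whose groups did not overlap, 24.2% lower and 22.3% higher.

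**Figure D1:**
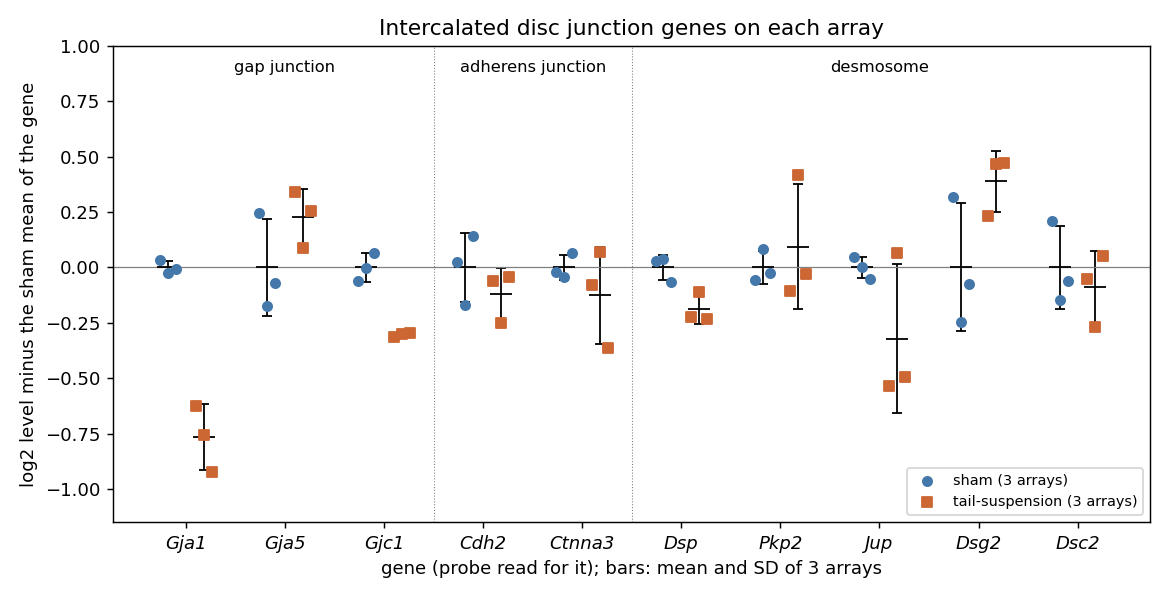
Level of the 10 junction genes on each array, as the log2 level minus the sham mean of the same gene (vertical axis), for 3 sham arrays (circles) and 3 tail-suspension arrays (squares), with the mean and SD of each group as black bars. The tail-suspension arrays lie below all sham arrays for Gja1, Gjc1 and Dsp, and the groups overlap for the other 7 genes.

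Gja1 encodes Cx43, the main connexin of working ventricular cardiomyocytes, which fibroblasts and endothelial cells also make. Its probe lies on mm9 at chr10:56109814-56109873 on the plus strand and was spotted 10 times on each array. The Gja1 intensity was 2344, 2232 and 2130 in the sham hearts and 1572, 1585 and 1408 in the tail-suspended hearts. All 3 tail-suspended hearts were thus below all 3 sham hearts even before scaling, and the sham arrays lay close together. The spots of this probe on an array had an SD of 0.018 to 0.0322 on the log2 scale. The mean level was 2.83 ± 0.031 in sham and 2.06 ± 0.15 in tail-suspension (SD, n = 3 each). The level fell by 0.77 on the log2 scale (SE 0.10, 95% interval -1.01 to -0.52, adjusted p = 0.0066 by limma), which is 0.588 times the sham level with an interval of 0.497 to 0.695. The exact permutation test over the arrays gave p = 0.1 two-sided, the smallest that 3 against 3 arrays allow. A log2 fold change as low or lower was seen in 4.15% of the 17140 genes. Since the RNA came from whole tissue, fewer cells of a type and less RNA per cell cannot be told apart.

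The values of the cell type markers beside this fall were as follows. Of 10 cardiomyocyte markers, 0 were called higher and 1 lower (Actc1, log2 fold change -0.33). A negative change was seen in 9 of them, 5 were lower without overlap, and the median log2 fold change was -0.12. Their summed level, in multiples of the 75th percentile, was 5656 to 6016 in sham and 5181 to 5313 in tail-suspension. Of 8 endothelial markers, 5 were lower, with a summed level of 163 to 173.8 in sham and 123.7 to 138.4 in tail-suspension. Of 7 fibroblast markers, 0 passed, but 5 had a negative change and the median log2 fold change was -0.63. Col1a1 (-0.95), Col1a2 (-0.63) and Lum (-0.64) were lower without overlap and Postn was at -0.96 with overlap, whereas Dcn, the brightest, was at 0.34. Pdgfra, at 0.19, and Tcf21, at -0.03, overlapped between the groups. The summed level of this list, carried by Dcn, was 263.9 to 283 in sham and 273.3 to 342.2 in tail-suspension. Every listed marker of these cell types was well above background in at least 1 group. With levels centred on the mean of the 10 cardiomyocyte markers of each array, a choice made after seeing the data, Gja1 was still lower by limma (log2 fold change -0.64, adjusted p = 0.0112). The part of endothelial cells and fibroblasts in the result was not tested. On the slide, tail-suspension replicate 1 shared the first row with the sham arrays, and the remaining tail-suspended hearts were in the second. With the row as a block, which in effect sets tail-suspension replicate 1 against the sham arrays, the log2 fold change of Gja1 was -0.62 with an adjusted p of 0.0874 by limma.

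Gjc1 encodes Cx45, a low-conductance connexin best known from the embryonic heart and the conduction system. Its probe lies on mm9 at chr11:102661010-102661069 on the minus strand. The intensity of Gjc1 was 636, 659 and 650 in the sham hearts and 565, 631 and 632 in the tail-suspended hearts. These intensities lay close together, with only tail-suspension replicate 1 clearly apart, and on the scaled levels all 3 tail-suspended hearts were below all sham hearts and nearly equal. The mean level was 1.04 ± 0.063 in sham and 0.74 ± 0.011 in tail-suspension (SD, n = 3 each). The level fell by 0.30 on the log2 scale (SE 0.08, 95% interval -0.49 to -0.11, adjusted p = 0.0429 by limma), and the exact permutation p was 0.1. This call was lost when any 1 of the 6 arrays was left out, at adjusted p of 0.0657 to 0.128 by limma, while the log2 fold change stayed between -0.33 and -0.27. With levels centred on the cardiomyocyte markers, Gjc1 had a log2 fold change of -0.18 and an adjusted p of 0.193 by limma. Of 8 conduction system markers only 4 were tested and 0 of them passed, 2 of them higher without overlap, and their summed level was 18.72 to 21.58 in sham and 20.4 to 25.84 in tail-suspension. Hcn4, Cntn2 and Shox2 of that list were not well above background on all arrays of either group.

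Gja5 encodes Cx40, which is known from atrial myocytes, the fast conduction system and arterial endothelium. Its tested probe lies on mm9 at chr3:96857349-96857408 on the plus strand. The Gja5 intensity was 287, 213 and 216 in the sham hearts and 324, 301 and 336 in the tail-suspended hearts. Sham replicate 1 was the highest of the sham arrays, and on the scaled levels it overlapped the tail-suspension arrays. Gja5 did not pass the threshold, with a log2 fold change of 0.23 (SE 0.14, 95% interval -0.10 to 0.55, adjusted p = 0.263 by limma). The second probe of Gja5, at chr3:96836339-96836395 on mm9, read only 2.859 to 7.969 and was not well above background on any array. Its first 39 bases match the start of the Gja5 transcript in RefSeq, from the 12th base after the annotated start. The sequence at hand ends there, so the rest of the probe was not compared. Of 7 arterial endothelial markers, 3 were higher, Sema3g by 0.85, Hey1 by 0.56 and Sox17 by 1.03 on the log2 scale, with a summed level of 14.55 to 17.08 in sham and 22.82 to 23.73 in tail-suspension. Of 8 atrial markers, 4 were tested and 1 passed, Tbx5, with a log2 fold change of 0.56, and their summed level was 106.2 to 208.7 in sham and 185.7 to 646.2 in tail-suspension. The part of atrial or arterial cells in the Gja5 level was not tested.

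The difference in log2 level between Gja1 and Gjc1 on the same array changed by -0.46 and that between Gja1 and Gja5 by -0.99. The sham and tail-suspension arrays did not overlap in either difference, and the exact permutation p was 0.1 for each. As this is again the smallest possible, the permutation test cannot show that the connexins changed unequally. The differences were not fitted with limma. These 2 differences use the levels described above and are no independent measurement.

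RefSeq windows of 250 bases before the annotated transcript start (GRCm38.p6) were at hand for 5 of the 10 genes, Gja1, Gja5, Ctnna3, Jup and Dsp, with 3 alternative starts for Ctnna3. The windows of the connexin that fell most and of the connexin that did not pass are shown, so that the sequences in front of both can be compared. Capitals mark the AP-1 motif TGAGTCA in Gja1 and the GC box GGGCGG in Gja5. The Gja1 window is chr10:56377050-56377299 and the Gja5 window chr3:97032152-97032401, both on the plus strand.
Gja1: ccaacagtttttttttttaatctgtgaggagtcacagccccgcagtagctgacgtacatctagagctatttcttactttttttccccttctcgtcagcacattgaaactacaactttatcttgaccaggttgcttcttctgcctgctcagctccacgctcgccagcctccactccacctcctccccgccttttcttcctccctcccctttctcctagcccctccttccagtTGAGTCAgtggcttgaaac
Gja5: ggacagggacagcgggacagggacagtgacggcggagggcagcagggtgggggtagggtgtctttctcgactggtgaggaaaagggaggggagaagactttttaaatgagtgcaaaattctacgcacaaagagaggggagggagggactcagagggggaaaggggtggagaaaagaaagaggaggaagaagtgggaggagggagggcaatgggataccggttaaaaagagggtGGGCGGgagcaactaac

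The motifs were searched on both strands, none of them overlapping another in these windows. TGAGTCA, the AP-1 motif, was found in the Gja1 window only, beginning 19 bases before the start, and is in 4.46% of the 32851 windows of that length in the table. The GC box GGGCGG, in 32.7% of all windows, was found once in Gja5, beginning 17 bases before the start, once in 1 of the 3 Ctnna3 windows, at 2 places in Jup and at 4 places in Dsp. AAGTG, part of the binding motif of NKX2-5, was found once in Gja5 and once in a Ctnna3 window, against 40.7% of all windows. The T-box motif TCACACC, in 3.33% of all windows, was in none of these. These are letter matches only.

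Ctnna3 encodes αT-catenin, a catenin of muscle that links the cadherin complex and plakophilin 2 to actin. Its probe spans 158721 bases on mm9, chr10:64138650-64297370 on the plus strand, so its 60 bases cross from one exon to another. The probe is shown because it reads spliced RNA of this long gene, and at least 1 of its forward frames is open.
Ctnna3 probe: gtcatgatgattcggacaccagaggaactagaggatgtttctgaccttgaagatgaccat

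The Ctnna3 intensity was 143, 140 and 142 in the sham hearts and 145, 178 and 131 in the tail-suspended hearts. The sham arrays were nearly equal, while the tail-suspension arrays spread on both sides of them on the scaled levels. Ctnna3 had a log2 fold change of -0.13 (SE 0.13, 95% interval -0.43 to 0.18, adjusted p = 0.502 by limma).

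Cdh2 encodes N-cadherin, the cadherin of the adherens junction between cardiomyocytes. Its brighter probe lies on mm9 at chr18:16747559-16747618 and its second probe at chr18:16747386-16747445, both on the minus strand. The brighter Cdh2 probe read 22370, 19380 and 22700 in the sham hearts and 22250, 21590 and 24860 in the tail-suspended hearts. The groups overlapped, and the level differed by less than the spread between arrays (log2 fold change -0.12, SE 0.11, 95% interval -0.39 to 0.16, adjusted p = 0.486 by limma). The second Cdh2 probe read 13430, 12310 and 14830 in sham and 11590, 13620 and 13460 in tail-suspension. On the scaled levels all 3 tail-suspended hearts were below all sham hearts at this probe, with a log2 fold change of -0.28 (SE 0.11, adjusted p = 0.119 by limma). Both Cdh2 probes thus had a negative change that did not pass the threshold. Centred on the cardiomyocyte markers, the brighter probe had a log2 fold change of 0.0041.

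Pkp2 encodes plakophilin 2, the armadillo protein of the cardiac desmosome. Its probe lies on mm9 at chr16:16272648-16272707 on the plus strand. The Pkp2 intensity was 13580, 14860 and 12980 in the sham hearts and 13910, 22040 and 16130 in the tail-suspended hearts. Tail-suspension replicate 2 stood above all other arrays, and the other 2 tail-suspended hearts lay among or below the sham hearts on the scaled levels. Pkp2 had a log2 fold change of 0.09 (SE 0.15, 95% interval -0.26 to 0.45, adjusted p = 0.678 by limma) and, without tail-suspension replicate 2, -0.067.

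Jup encodes plakoglobin, which sits in both the desmosome and the adherens junction. Its probe lies on mm9 at chr11:100238038-100238097 on the minus strand and is shown because the call for Jup turns on 1 array of this single probe.
Jup probe: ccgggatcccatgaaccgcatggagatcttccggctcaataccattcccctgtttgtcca

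The Jup intensity was 150, 144 and 131 in the sham hearts and 106, 177 and 120 in the tail-suspended hearts. Tail-suspension replicates 1 and 3 were below all sham arrays, and tail-suspension replicate 2 was above them. Over all 6 arrays the log2 fold change was -0.32 (SE 0.17, 95% interval -0.73 to 0.08, adjusted p = 0.213 by limma). Without tail-suspension replicate 2 it was -0.52 with an adjusted p of 0.017 by limma, so this array decides whether Jup passes. At the probes read for the genes, the same array was the highest of the tail-suspension arrays in level for Pkp2, Dsp and Ctnna3 as well. It was the lowest for Cdh2, Dsc2 and Gja5. At the second probes this was reversed, as the array was the lowest for Dsp and the highest for Cdh2.

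Dsp encodes desmoplakin, which ties the desmosome to the desmin filaments. Its brighter probe lies on mm9 at chr13:38290121-38290180 on the plus strand and was spotted 10 times. The Dsp intensity was 22560, 22530 and 19810 in the sham hearts and 20050, 23910 and 21990 in the tail-suspended hearts. The intensities overlapped, but on the scaled levels the tail-suspended hearts, at 5.87 to 5.99, were all below the sham hearts, at 6.04 to 6.14. The log2 fold change of -0.19 did not pass the threshold (SE 0.08, 95% interval -0.39 to 0.01, adjusted p = 0.152 by limma, exact permutation p = 0.1). The second Dsp probe lies upstream and spans 1100 bases of mm9, chr13:38285480-38286579 on the plus strand, so it too crosses an exon junction. It is shown because it reads another stretch of the transcript and went the other way.
Dsp second probe: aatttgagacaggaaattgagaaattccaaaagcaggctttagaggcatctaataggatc

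This probe read 493, 402 and 430 in the sham hearts and 604, 475 and 599 in the tail-suspended hearts. The groups overlapped on the scaled levels, with a log2 fold change of 0.13 (SE 0.15, adjusted p = 0.57 by limma). The change at the brighter and at the second probe thus differed in sign, and neither passed the threshold.

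Dsg2 and Dsc2 encode desmoglein 2 and desmocollin 2, the desmosomal cadherins of cardiomyocytes. The brightest Dsg2 probe lies on mm9 at chr18:20761177-20761236 on the plus strand, and its intensity was 827, 556 and 590 in the sham hearts and 823, 1072 and 1071 in the tail-suspended hearts. Sham replicate 1 was as high as tail-suspension replicate 1, so the groups overlapped, while the other sham arrays were well below. The log2 fold change of 0.39 (SE 0.16, 95% interval 0.0037 to 0.78) had an unadjusted p of 0.0484 and an adjusted p of 0.129 by limma.

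The second Dsg2 probe, at chr18:20737628-20737687, read 96.4, 57.61 and 83.23 in the sham hearts and 124.6, 132.1 and 132.5 in the tail-suspended hearts. Here all 3 tail-suspended hearts were above all sham hearts and close to each other. The log2 fold change of 0.53 (SE 0.19, 95% interval 0.077 to 0.99) did not pass after adjustment (adjusted p = 0.0919 by limma). The log2 fold change of this probe was 0.31 without sham replicate 2 and 0.22 with normexp background correction, and that of the brighter probe was 0.23 with the slide row as a block. Both tested Dsg2 probes thus had a positive change below the threshold, and the remaining probe, at chr18:20743861-20743920, read only 2.807 to 4.06. The Dsg2 probes match the same gene and are no replicates of each other. Of 9 epithelial and mesothelial markers, which would mark other cells rich in desmosomes, only Krt14 and Krt18 were tested and 0 passed. Krt18 had a log2 fold change of 0.72, higher without overlap (adjusted p = 0.0841 by limma), and Krt14 had 0.19 with overlap. The part of such cells in the Dsg2 level was not tested. Cdh1, Epcam, Krt5, Krt8, Krt19, Msln and Upk3b were not well above background on all arrays of either group.

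The Dsc2 probe lies on mm9 at chr18:20189299-20189358 on the minus strand. The Dsc2 intensity was 839, 650 and 651 in the sham hearts and 741, 703 and 878 in the tail-suspended hearts. Both groups spread over about the same range. Dsc2 had a log2 fold change of -0.09 (SE 0.13, 95% interval -0.41 to 0.23, adjusted p = 0.659 by limma), and it was 0.033 when the levels were centred on the cardiomyocyte markers.

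**Figure D2:**
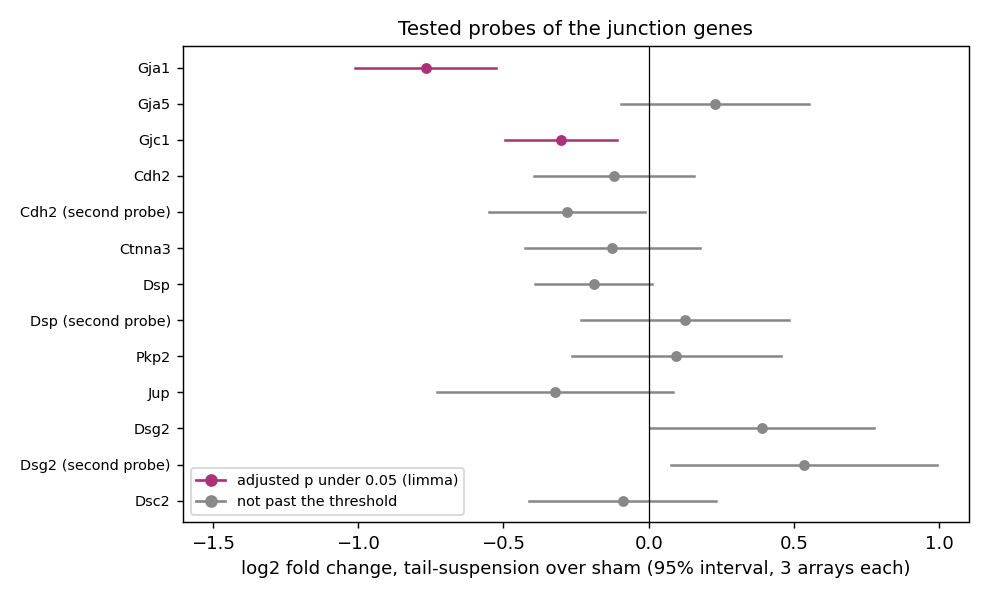
Log2 fold change of tail-suspension over sham (horizontal axis) for each of the 13 tested probes of the junction genes, with the 95% interval from limma as a bar. The intervals of Gja1 and Gjc1 lie below 0 and are the only ones past the adjusted threshold of 0.05, and the pair of Dsp probes lies on both sides of 0.

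Counted by probe, 0 of the 13 tested probes rose and 2 fell, against 10.8% and 9.57% of all 28032 tested probes. The 95% intervals, not adjusted for the number of genes, show how precisely the remaining genes were measured. For Ctnna3 the interval spans 0.744 to 1.13 times the sham level, for the brighter Cdh2 probe 0.762 to 1.11 times and for the brighter Dsp probe 0.763 to 1.01 times. For Jup it is wider, at 0.604 to 1.06 times, and its lower end comes close to the 0.588 times of Gja1. No test of the difference between connexins and desmosome genes was made.

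Genes that work beside the members were taken from 4 lists of other connexins and gap junction scaffold, other adherens junction and actin-linking genes, other desmosome genes with desmin, and channels, anchors and other proteins of the disc. Of 55 names 54 were on the array and 32 were tested, and 4 of these rose and 3 fell. Of the 4, Ank3 rose at the probe read for it and not at its other probes. Over all 17140 genes tested, 10.6% were called higher and 10.5% lower. The share of the 32 related genes called is thus close to the background. The median log2 fold change of the 32 genes was -0.10. Of 7 tested genes of the first list, 1 fell, Cxadr, an adhesion receptor of the disc. Its intensity was 3399, 3562 and 2610 in sham and 2087, 2336 and 2240 in tail-suspension, with no overlap and a log2 fold change of -0.72 (SE 0.11, adjusted p = 0.0109 by limma), and its less bright probe had -0.25 (adjusted p = 0.298). Tjp1, which encodes the scaffold protein ZO-1 that binds Cx43, had a log2 fold change of -0.25 (adjusted p = 0.128 by limma).

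Of 11 tested adherens junction and actin-linking genes 0 passed in the fit with limma, and 6 had an unadjusted p under 0.05, which 39.3% of all genes tested had. The log2 fold change was -0.10 for Ctnnb1 (β-catenin), -0.27 for Ctnna1 (αE-catenin) and -0.24 for Vcl (vinculin, which ties the catenins to actin), with adjusted p of 0.373, 0.0821 and 0.127 by limma. On the scaled levels the arrays of all 3 genes did not overlap, each lower in tail-suspension, as were 24.2% of all genes tested. The intensities of all 3 genes overlapped. Ctnnb1 had 0.020 with levels centred on the cardiomyocyte markers, and the second Vcl probe gave 0.21. Ctnna1 passed in 3 of 20 alternatives, namely quantile normalization, the authors' log2 values and an intensity trend. Vcl passed in 1, with array weights.

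Of 6 tested desmosome genes and desmin 3 rose and 0 fell, against 10.6% higher and 10.5% lower among all genes tested. Ppl encodes periplakin, a plakin known from desmosomes of epithelia, and its intensity was 208, 230 and 274 in sham and 713, 604 and 775 in tail-suspension. All 3 tail-suspended hearts were far above the sham hearts, with a log2 fold change of 1.35 (SE 0.17, adjusted p = 0.00541 by limma). The summed level of the tested epithelial markers was 0.1955 to 0.3133 in sham and 0.3205 to 0.4765 in tail-suspension, and its part in the value of Ppl was not tested. Des, the desmin to which desmoplakin binds, read 13080, 13300 and 9764 in sham and 22000, 25670 and 28780 in tail-suspension. The groups did not overlap, and Des rose by 0.87 on the log2 scale (SE 0.13, adjusted p = 0.00883 by limma). Des is made by smooth muscle too, and of its 6 markers 5 had a positive change, with a median of 0.44. The 1 that passed as higher is Des itself, Cnn1 (0.64), Myh11 (0.51) and Tagln (0.36) did not pass, and Smtn was lower (-0.56). Their summed level, Des and the bright Smtn included, was 157.1 to 179.5 in sham and 166 to 200.9 in tail-suspension, and the part of smooth muscle in the rise of Des was not tested. Pkp4, a plakophilin of junctions outside the classical desmosome, rose by 0.69 (SE 0.09, adjusted p = 0.0068 by limma).

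Of 8 tested channels, anchors and other proteins 1 rose and 2 fell, against 10.6% higher and 10.5% lower among all genes tested. Tmem65, a membrane protein of the disc that interacts with Cx43, read 2335, 2160 and 1915 in sham and 1535, 1648 and 1512 in tail-suspension. Its arrays did not overlap, and it fell by 0.66 on the log2 scale (SE 0.09, adjusted p = 0.00813 by limma). Ank2, the anchor ankyrin-B, fell by 0.39 (adjusted p = 0.0322 by limma). Ank3, the anchor ankyrin-G, rose by 0.43 at the probe read for it (adjusted p = 0.0175 by limma). Ank2 did not pass in 10 of 20 alternatives, among them no filter on dim probes, the replicate block and each array left out except tail-suspension replicate 1, and Ank3 did not pass in 8. The other Ank3 probes, however, gave -0.08 each without passing, and with the mean of its probes Ank3 was at 0.091 with an adjusted p of 0.48. In sham, 1 of these other probes was brighter than the probe read, at a mean level of 0.38 against 0.24. The probe read for Ank3 was thus the brightest only through its tail-suspension values, so its rise is no independent support for a rise of the gene.

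**Figure D3:**
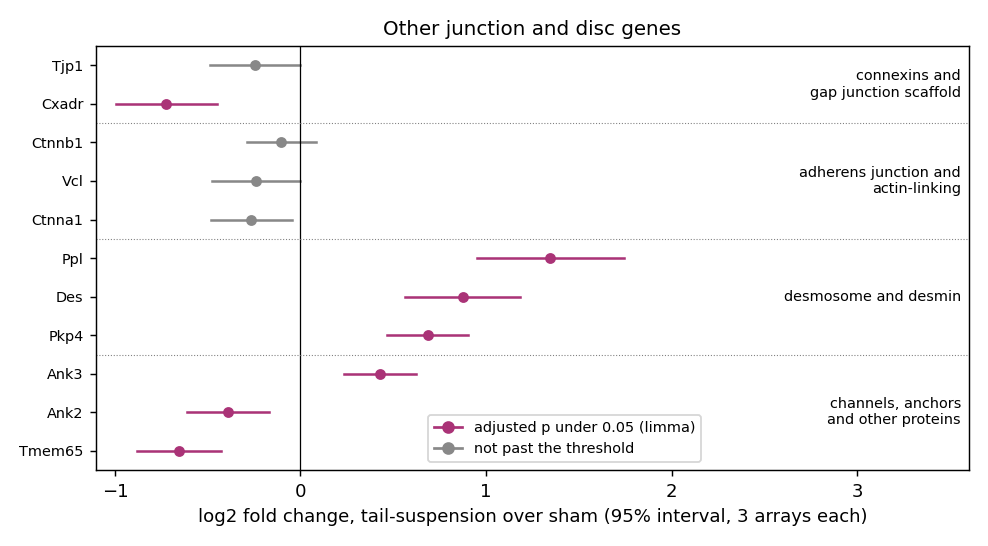
Log2 fold change of tail-suspension over sham (horizontal axis) of the 7 genes past the threshold among the 4 lists of other junction and disc genes, and of Tjp1, Ctnnb1, Ctnna1 and Vcl, with the 95% interval from limma as a bar, grouped by list. Ppl, Des, Pkp4 and, at the probe read for it, Ank3 rose, and Cxadr, Ank2 and Tmem65 fell. The intervals of Tjp1 and Vcl end close to 0.

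The calls of Gja1 and Gjc1 depended to unequal degrees on the processing. Over 20 alternatives the log2 fold change of Gja1 lay between -0.84 and -0.62 and passed in all but the one with the slide row as a block. That of Gjc1 lay between -0.33 and -0.18 and did not pass in 12 of the 20.

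**Figure D4:**
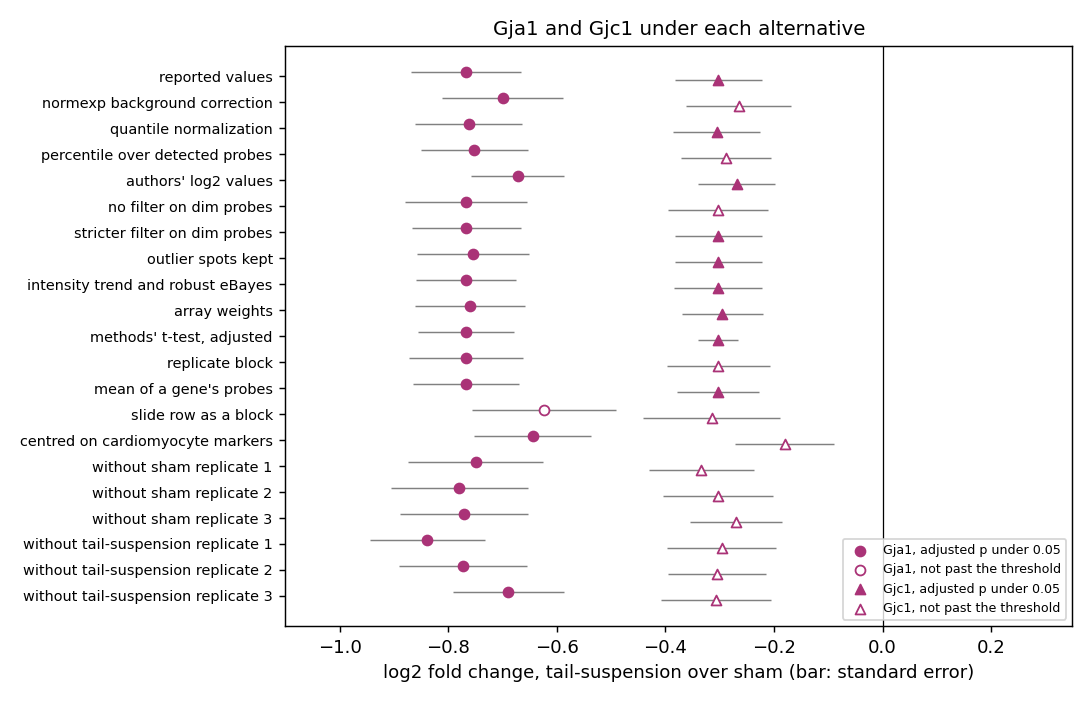
Log2 fold change of Gja1 (circles) and Gjc1 (triangles) as reported and under 20 alternatives (vertical axis), with the standard error as a bar and filled symbols where the adjusted p was under 0.05. Gja1 lies between -0.84 and -0.62 with 1 open symbol, and Gjc1 lies between -0.33 and -0.18 with 12.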

How the data were processed

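Gene expression in cardiac muscle RNA (0.2 µg per array, Cy3) of 3 sham and 3 tail-suspension mice was measured on 1-colour arrays. The authors deposited scanner output of Agilent Feature Extraction 10.7.1.1 (version per the submitters' processing notes), in which the processed intensity is background-subtracted but not scaled between arrays, and their own log2 values for the 6 arrays in a table. That table correlated at 0.9991 to 0.9993 with the levels used here and served as an alternative. The coordinates in the files are on mm9.

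From the processed intensity, spots with outlier flags (146 to 212 per array) were left out, 0 spots were saturated, log2 intensities were taken relative to the 75th percentile of all non-control spots, and repeated spots were averaged. Of a probe with repeated spots, 50% or more had to be well above background for the probe to count as such. Groups were compared with limma 3.58.1 in R 4.3.3 (lmFit, eBayes) without covariates. The study's methods give an unpaired t-test for its data in general and none for the arrays in particular, so it was run as an alternative. The intervals are 95% intervals from the limma fit. This fit was tested on simulated data first. Where several probes of a gene were tested, the one with the highest mean was used. Names that are genomic regions or probe IDs were not counted as genes. Symbols were kept as the array's annotation gives them. The junction genes, the related and marker lists and the comparisons were chosen with earlier results of these data known. Named are all 10 junction genes, each related gene past the threshold, Ctnnb1, Ctnna1, Tjp1, Vcl and Des in any case, and marker genes beside a junction gene's result. Of the marker lists not described with a gene, 4 of 6 tested neutrophil markers were higher and 0 of 5 erythroid markers passed, with summed levels of 143.1 to 171 and 427.6 to 688.9 in sham and 206.5 to 235.3 and 106 to 343.9 in tail-suspension. The labels number the arrays as replicates, which were taken to be separate mice, and the number of arrays limits the precision. Samples with the same replicate number did not deviate together (correlations of -0.0198, -0.0176 and 0.0496). The alternatives were other background corrections, normalizations, filters, variance models, blocks and probe rules, the methods' t-test, and leaving out each array. A block for the slide was not possible, as all arrays share 1 slide. Exon and UTR positions of the probes were not analysed here, and the probe sequences of the other junction genes are not shown. Some genes of the lists are counted but not reported here by name. Promoter windows are those of RefSeq, GRCm38.p6.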

Additional observations from a re-analysis of the deposited data

How the results depend on the processing

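The direction of change of Gja1, Gjc1, Gja5, Dsp, Jup, Dsg2 and Ctnna3 was the same under all 20 alternatives. With the slide row as a block, Gja1 had a log2 fold change of -0.62 (adjusted p = 0.0874) and Gjc1 -0.31 (0.233). Gjc1 also missed the threshold with normexp background correction (-0.26), the percentile over detected probes (-0.29), no filter on dim probes (-0.30), centring on the cardiomyocyte markers (-0.18) and each array left out (-0.33 to -0.27). The replicate block, with numbers that do not pair the mice, gave -0.30 for Gjc1 (adjusted p = 0.102 by limma) and moved the counts over all genes from 1821 higher and 1808 lower to 1031 and 931. So 1 junction gene and 1 probe were lower under normexp, the percentile over detected probes, no filter, the replicate block and the cardiomyocyte centring, 0 under the row block, and 1 to 2 with an array left out. Without tail-suspension replicate 2 the 2 genes were Gja1 and Jup, and Jup ranged from -0.52 to -0.21 over the arrays left out. Changes that had not passed turned sign for Pkp2 with array weights (-0.0087), the row block (-0.10) and an array left out (-0.067 to 0.19), and for Dsc2 with an array left out (-0.16 to 0.016). Centring on the cardiomyocyte markers moved the median of all probes to 0.12 and turned Cdh2 (0.0041), Dsc2 (0.033) and Ctnnb1 (0.020). Of the related genes, 5 were lower with quantile normalization or the mean of a gene's probes, 6 with an intensity trend or array weights, and 0 were higher or lower with the row block. Over all genes, higher and lower counts were 643 and 536 with no filter, 953 and 910 with the methods' t-test after adjustment, 209 and 117 with the row block, 3044 and 1036 with the cardiomyocyte centring, and 629 to 1795 and 534 to 1757 with an array left out, and array weights gave 2731 lower. Over all alternatives, log2 fold changes that had not passed as reported ranged from 0.14 to 0.35 for Gja5, 0.23 to 0.55 for Dsg2 (0.22 to 0.68 at its second probe), -0.25 to -0.032 for Dsp and -0.22 to -0.0030 for Ctnna3. Ank2 missed the threshold in 10 alternatives (-0.46 to -0.26 over all 20) and Ank3 in 8 (0.091 to 0.55). The methods' t-test called Gja1 (adjusted p = 0.0311) and Gjc1 (0.0326) among the junction genes. The mean of a gene's probes gives no count by probe. Where not stated above, the cause was not tested.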

Other observations

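Some related genes that did not pass the adjusted threshold were looked at after their values were seen. Xirp1 and Xirp2 encode Xin proteins that bind actin at the disc, and their log2 fold changes were 0.28 (SE 0.09, adjusted p = 0.0771 by limma) and -0.37 (SE 0.13, adjusted p = 0.095). On the scaled levels the groups did not overlap for either gene, higher for Xirp1 and lower for Xirp2, while the Xirp2 intensities overlapped. The groups did not overlap in level for 46.5% of all genes tested in either direction. Ctnnd1, the p120-catenin that stabilises cadherins at the membrane, had -0.29 (SE 0.08, adjusted p = 0.055 by limma). Gja4, which encodes Cx37 of arterial endothelium, had 0.19 (SE 0.16, adjusted p = 0.432 by limma). All of these remain below the threshold with 3 arrays a group.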
